A study of Mus musculus with 8 samples.

Results

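RNA splicing was compared between spermatocytes, the germ cells in meiosis, and round spermatids, the haploid cells that follow, in mice labelled as Larp7 knock-out. The comparison used the first sample group of the deposited spermatocyte tables and the first sample group of the round spermatid tables, 2 libraries each, so 4 of the 8 libraries of the series. All mice were C57BL/6 by their labels. Cells came from adult testes, were stained with Hoechst 33342 and were sorted by FACS, and polyadenylated RNA was sequenced. The series' design text calls the knock-out conditional, and the sources used here do not give its Cre driver. The other 4 libraries carry the genotype label Wildtype and cover the same 2 stages. The 2 libraries of a group are called biological replicates, but whether they stem from separate animals is not stated. The p-values therefore speak for these libraries only. For splicing, the main limma fit used a spread shared by all events of like depth. The spread between an event's own libraries thus did not set its p-value.

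The deposited tables number their sample groups and do not name the genotype, so the groups are called the first and the second here. Larp7 itself describes the first group. Its 125-nt cassette exon at chr3:127544154-127544278 (mm10, minus strand) was included in 2.40% and 0.951% of transcripts in the 2 spermatocyte libraries and in 0.279% and 0.598% in the 2 round spermatid libraries. In the second group it was at 100% in every library. Nearly all Larp7 transcripts of the first group thus lacked this exon at both stages. Because the choice of libraries rests on this gene, its values are given as a description.

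Larp7 is an RNA-binding protein that stabilises the 7SK small nuclear RNA, which holds the elongation kinase P-TEFb inactive, and that also takes part in the methylation of U6, a small nuclear RNA at the catalytic centre of the spliceosome. Testis is known for abundant alternative splicing, and transcripts with retained introns are common in meiotic cells. Each splicing event is described by its inclusion level, the length-corrected share of transcripts that carry the alternative exon, the intron or the longer form. For a mutually exclusive pair it is the share that carries the first of the 2 exons in transcript order. Differences are in percentage points, round spermatids minus spermatocytes.

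There were 66122 events in the spermatocyte tables and 52897 in those of round spermatids. Of these, 36162 had the same type, chromosome, strand and exon coordinates in both, which is 54.7% of the first and 68.4% of the second. With at least 10 reads on average per library in each stage, 32485 events in 7941 genes could be tested. The reads over all events numbered 51786242 and 102000320 in the spermatocyte libraries and 49904607 and 93265932 in those of round spermatids. A read can count in several overlapping events, so sequencing depth itself is not known from these sums. Inclusion levels of the 2 libraries of a stage correlated across events with r = 0.981 in spermatocytes and 0.978 in round spermatids, with events not independent of each other.

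Introns were retained less in round spermatids, and this was the most one-sided difference among the 5 event types. Of 2181 introns tested, 511 (23.4%) were called at a limma adjusted p below 0.05, and 449 of these (20.6% of those tested) were retained less in round spermatids against 62 (2.84%) retained more. Called introns with less retention had a median level of 16.4% in spermatocytes and 4.8% in round spermatids. Cassette exons went mostly the other way: of 22791 tested, 1795 (7.88%) were called, 1243 (5.45%) with higher and 552 (2.42%) with lower inclusion. Called exons that rose went from a median of 89.0% to 97.6%, and those that fell from 85.8% to 63.7%.

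The other types were nearly even in direction. Mutually exclusive exons gave 226 calls of 3628 (6.23%), 112 higher (3.09%) and 114 lower (3.14%). Alternative 3 prime splice sites gave 122 of 2396 (5.09%), 63 higher (2.63%) and 59 lower (2.46%). Alternative 5 prime splice sites gave 128 of 1489 (8.6%), 54 higher (3.63%) and 74 lower (4.97%). Over all types 2782 events (8.56%) in 1752 genes were called, 1534 higher (4.72%) and 1248 lower (3.84%). A quasi-binomial test of the reads called 2922 (8.99%), of which 2458 were shared. Libraries of the 2 stages did not overlap in 43.5% of all tested events and in 2521 of the called ones. Of the called events, 1272 (3.92% of all tested) also differed by at least 10 points with no overlap between the libraries of the 2 stages. These larger differences held 267 introns (12.2% of introns tested), 227 with lower and 40 with higher retention, and 730 cassette exons (3.2%), 465 with higher and 265 with lower inclusion. No event went from at most 10% in both libraries of one stage to at least 90% in both of the other.

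**Figure D1:**
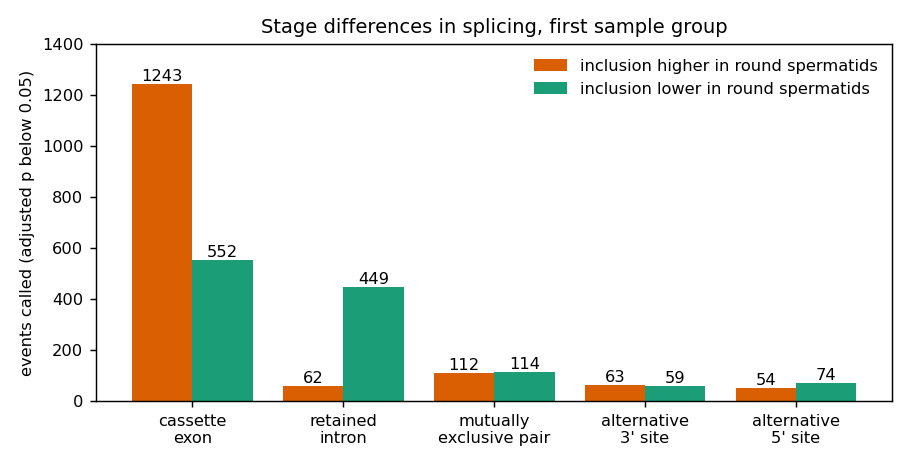
Number of splicing events called at a limma adjusted p below 0.05 in the first sample group, by event type (x axis) and direction (bars). Retained introns fall mostly on the lower side (449 against 62) and cassette exons on the higher side (1243 against 552).

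The calls depend on the fit and on having both libraries of each stage. Without count weights limma called 768 events, and 1580 with a spread that follows total reads. With any 1 of the 4 libraries left out, limma called 0 events, although between 2553 and 4717 events had an unadjusted p under 0.05. Leaving libraries out of a fit of all 8, which pools the spread, gave between 2842 and 3098 calls, but 955 without the second round spermatid library. Those 955 included 223 introns lower and 26 higher, and 333 cassette exons higher and 241 lower. At an unadjusted p under 0.05 and without that library, 706 cassette exons were higher and 1033 lower, and without the first round spermatid library the counts were 1231 and 1245. The direction of the cassette exon counts thus depends on which round spermatid libraries enter. Introns remained mostly lower in these same counts, 339 against 44 and 458 against 66.

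Means over all tested events gave the same picture for introns. Mean retention was 27.9% and 27.7% in the 2 spermatocyte libraries and 24.8% and 24.6% in the 2 round spermatid libraries. Both round spermatid libraries lay below both spermatocyte libraries. The difference was -3.13 points, and the exact two-sided permutation p of 0.333 is the smallest that 2 against 2 libraries can give. Cassette exons averaged 83.4% and 83.6% against 84.41% and 84.35%, a difference of 0.87 points with the same exact p. That sign turned to -1.53 points when each table's own events were averaged in place of the shared ones.

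**Figure D2:**
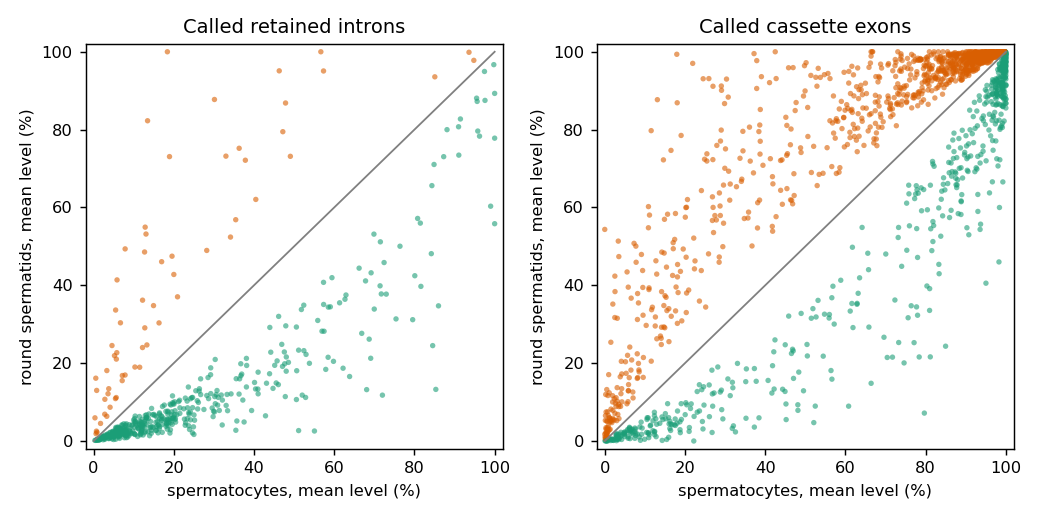
Mean inclusion level of each called retained intron (left) and cassette exon (right) in spermatocytes (x axis, percent) and round spermatids (y axis, percent), with the line of equality. Green points are lower and orange points higher in round spermatids; 449 of 511 introns lie below the line and 1243 of 1795 exons above it.

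Introns were taken here from called ones without overlap between stages and with at least 20 reads, both forms together, in every library. Among these, introns of Ydjc, Odf2l and Sec63 fell by the most points. Ydjc, a homologue of a bacterial carbohydrate deacetylase, carried an 86-nt intron (chr16:17147147-17147232, plus strand) that was retained at 88.4% and 82.3% in spermatocytes and at 12.8% and 13.7% in round spermatids. The stages were far apart and the 2 libraries of each were close. The difference in log2 odds was -5.06 (SE 0.46, limma adjusted p = 4.889e-25). Reads of the most covered Ydjc event, which is another one, rose from 4.77 and 4.30 to 42.7 and 53.5 CPM (event reads scaled to a common library sum). The intron event's own reads showed no such rise. They were 204 and 403 retained with 17 and 55 spliced in spermatocytes, and 47 and 83 with 203 and 331 in round spermatids. The 3 prime splice site of this intron is shown because it belongs to the largest of these falls, with 24 bases of intron and 6 of exon and the AG in capitals. It falls at chr16:17147209-17147238 in the RefSeq promoter window of the neighbouring gene Ccdc116 (GRCm38.p6), and the sources used here do not say whether reads were assigned by strand.
Ydjc acceptor: atcgctctcgcgctctgcccgtAGgcacag

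The 1605-nt intron of Odf2l, a relative of the sperm outer dense fibre protein ODF2, was at 58.6% and 85.4% in spermatocytes against 11.3% and 12.3% in round spermatids (limma adjusted p = 0.003375). The spermatocyte libraries differed from each other by more than the round spermatid ones did. Sec63, part of the endoplasmic reticulum translocation machinery, had a 2482-nt intron at 78.5% and 90.6% against 23.2% and 25.8% (limma adjusted p = 0.009679). Spliced reads were few. They numbered 3 and 1 in spermatocytes against 12 and 31 in round spermatids for Odf2l, and 2 and 1 against 6 and 7 for Sec63.

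A few introns went up. In Exosc2, a subunit of the RNA exosome, a 763-nt intron was retained at 10.7% and 16.2% in spermatocytes and at 78.7% and 85.8% in round spermatids (limma adjusted p = 5.434e-10). Clcn2, a chloride channel, went from 20.9% and 17.0% to 61.4% and 84.7% (limma adjusted p = 0.0001768). Both were chosen among introns without overlap between stages. Long introns of at least 1000 nt made up 24.5% of called introns and 19.4% of all tested, and those of at most 200 nt 35.4% and 40.1%.

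Among cassette exons chosen in the same way, Rangap1, the activator of the RAN GTPase in nuclear transport, changed the most. Its 209-nt exon (chr15:81726074-81726282) was included at 18.6% and 25.2% in spermatocytes and at 94.6% and 99.5% in round spermatids. This took the exon from the minor to nearly the only form, with a log2 odds difference of 6.66 (SE 0.58, limma adjusted p = 4.116e-27). Erbin, a scaffold protein of cell junctions, showed a similar step in its 144-nt exon, from 21.8% and 27.2% to 94.1% and 92.0% (limma adjusted p = 6.962e-10).

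Pkm, the pyruvate kinase of the last step of glycolysis, changed at 2 places. A 117-nt exon (chr9:59663040-59663156) was included at 10.5% and 25.6% in spermatocytes and at 85.5% and 88.3% in round spermatids (limma adjusted p = 6.245e-36). Of its well-known pair of mutually exclusive exons, the upstream one, which belongs to the PKM1 isoform, was used at 45.5% and 57.5% in spermatocytes and at 91.1% and 90.5% in round spermatids (limma adjusted p = 2.504e-23). Both Pkm events were chosen among those without overlap between stages.

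Exons of Myef2, Baz2a and Dzip3 fell. In Myef2, an RNA-binding repressor of transcription, a 99-nt exon went from 85.4% and 84.5% to 23.1% and 25.6% (limma adjusted p = 2.318e-28). In Baz2a, a subunit of the nucleolar chromatin remodelling complex, a 391-nt exon went from 83.3% and 73.5% to 23.5% and 19.7% (limma adjusted p = 5.037e-13). In Dzip3, an E3 ubiquitin ligase, a 53-nt exon went from 96.9% and 93.1% to 42.5% and 38.6% (limma adjusted p = 1.339e-10). Each of these exons was the major form in spermatocytes and the minor form in round spermatids.

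**Figure D3:**
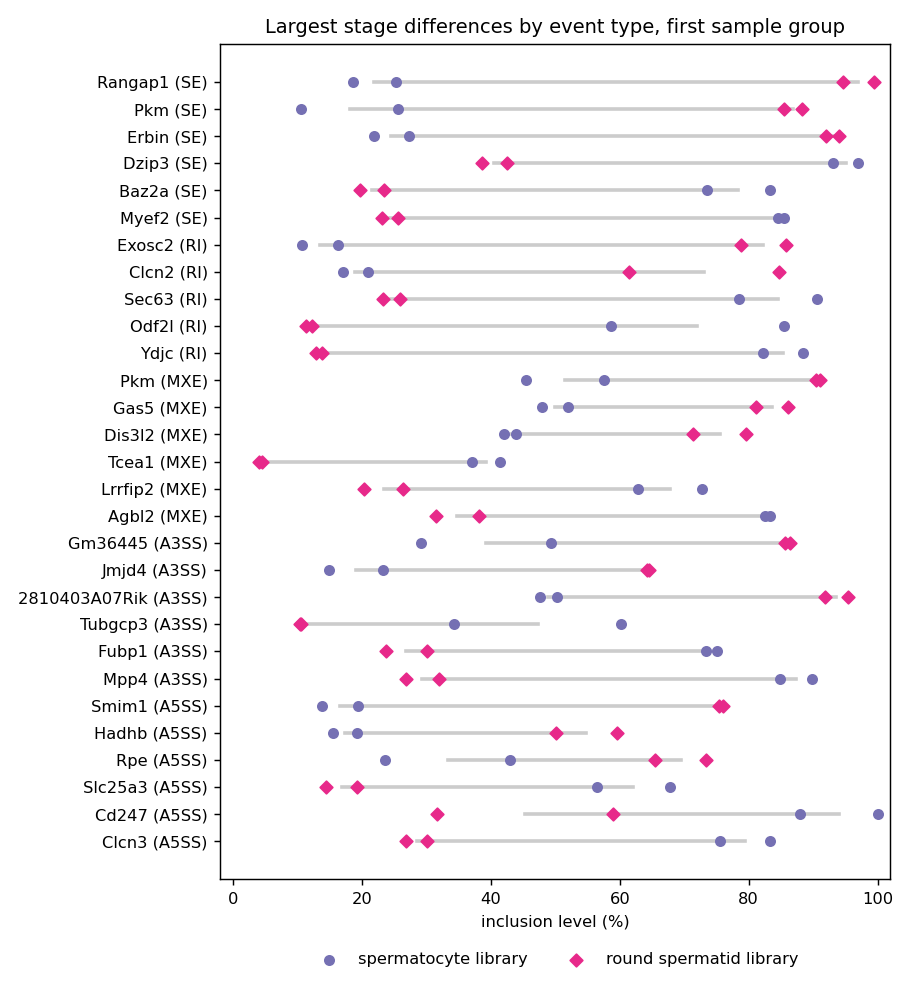
Inclusion level (x axis, percent) in each library of the first sample group for up to 3 of the largest called differences in each direction and event type (SE cassette exon, RI retained intron, MXE mutually exclusive pair, A3SS and A5SS alternative splice sites). Circles are spermatocyte and diamonds round spermatid libraries, and grey bars join the stage means. Only events without overlap between the stages were eligible.

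Among mutually exclusive pairs, the first exon of Tcea1, the transcription elongation factor TFIIS, fell from 41.4% and 37.1% to 4.06% and 4.46% (limma adjusted p = 8.215e-09). Agbl2, a carboxypeptidase that trims glutamates from tubulin, went from 82.6% and 83.3% to 31.5% and 38.1% (limma adjusted p = 1.25e-13). Gas5, a noncoding RNA that hosts small nucleolar RNAs, rose from 52.0% and 48.0% to 86.1% and 81.1% (limma adjusted p = 2.737e-08). These 3 were likewise chosen among events without overlap between stages.

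At alternative 5 prime splice sites, the longer form of Slc25a3, the mitochondrial phosphate carrier, went from 67.8% and 56.5% to 19.3% and 14.3% (limma adjusted p = 5.548e-13). In Clcn3, a chloride-proton exchanger, it went from 83.3% and 75.5% to 30.1% and 26.9% (limma adjusted p = 1.32e-06). At alternative 3 prime splice sites, the longer form of Fubp1, a single-stranded nucleic acid binding protein that also acts in splicing, went from 75.1% and 73.3% to 30.1% and 23.7% (limma adjusted p = 1.264e-09). All 3 genes thus used the shorter form mostly in round spermatids. Sites 3 nt apart were 460 of the 2396 alternative 3 prime events tested but only 1 of the 122 called.

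Tfam, which packages and transcribes mitochondrial DNA, also moved to its short form. The longer 5 prime form was at 57.8% and 46.1% in spermatocytes and at 15.9% and 7.07% in round spermatids (limma adjusted p = 5.854e-08). The donor site that ends the short form lies in the gene's RefSeq promoter window (GRCm38.p6, chr10:71238211-71238240, minus strand) and is shown with 6 bases of exon, 24 of intron and the GT in capitals. It is the site whose use rose in round spermatids.
Tfam short-form donor: ctggggGTaagccgccgctcagcaacaccc

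Genes for splicing factors were themselves among the genes with stage-dependent splicing. At least 1 event was called in 1752 of all 7941 genes tested (22.1%). The counts were 10 of 16 genes for SR proteins, which bind exonic enhancers, and 6 of 7 for the CLK and SRPK kinases that phosphorylate them. They were 10 of 23 for hnRNP proteins and 15 of 54 for the core spliceosome. Lists with more events per gene have more chances of a call, so these counts are a description.

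In Hnrnph1, an hnRNP that binds G-rich sequence, a 2572-nt intron was retained at 64.7% and 51.1% in spermatocytes and at 24.5% and 12.3% in round spermatids (limma adjusted p = 1.301e-44). Rsrp1, an SR-related protein, had a 1302-nt intron at 71.1% and 71.8% against 36.9% and 42.8% (limma adjusted p = 2.879e-08). In Clk3 the longer 5 prime form fell from 62.8% and 63.0% to 28.9% and 22.9% (limma adjusted p = 2.122e-11). In all 3 genes the longer or intron-retaining form was the minor one in round spermatids.

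Called events of core spliceosome genes went both ways, 22 lower and 9 higher, beside 1248 lower and 1534 higher over all events. They come from 15 genes, so many share a gene. In Snrnp70, which encodes the U1-70K protein of the U1 particle, the longer 3 prime form went from 37.3% and 27.8% to 14.2% and 8.32% (limma adjusted p = 1.228e-22). In U2af2, the large subunit of the factor that binds the polypyrimidine tract, a 64-nt exon rose from 2.09% and 3.02% to 34.1% and 42.6% (limma adjusted p = 1.296e-17). Srpk2, which encodes one of the SR protein kinases, had a 64-nt exon that went from 94.3% and 93.0% to 56.2% and 55.2% in round spermatids (limma adjusted p = 1.829e-07). None of these overlapped between stages.

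Of 24 tested genes of the 7SK particle, P-TEFb and U6 RNA metabolism, 7 (29.2%) had a called event, beside 22.1% of all genes. The 7 include Larp7, on which the choice of libraries rests, so this count is a description. Mettl16, a methyltransferase that modifies U6, included a 66-nt exon at 25.0% and 12.8% in spermatocytes and at 48.0% and 39.1% in round spermatids (limma adjusted p = 0.003073). Ccnt2, a cyclin subunit of P-TEFb, used its longer 5 prime form at 59.2% and 43.2% against 23.2% and 9.56% (limma adjusted p = 0.0004617). Larp7 retained an 85-nt intron (chr3:127547005-127547089) at 31.7% and 28.2% in spermatocytes and at 9.12% and 6.16% in round spermatids. In the second group that intron was at 7.12% and 8.50% against 3.85% and 4.08%, so it was lower in round spermatids of both groups. The log2 odds difference was -2.365 in the first group and -1.035 in the second (interaction, limma adjusted p = 0.3855).

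Called events of meiotic genes were more often lower than higher in round spermatids: 11 against 6 for the synaptonemal complex, axis and cohesin, 7 against 1 for recombination and 13 against 6 for the piRNA pathway. Over all types lower calls numbered 1248 and higher ones 1534. The meiotic calls come from 8, 4 and 9 genes in that order, so many share a gene. Over all tested events of these lists the median differences were 0.02, -0.26 and -0.09 points, beside 0.1 for all tested events. In Sycp1, the transverse filament of the synaptonemal complex, a 70-nt exon was at 99.4% and 98.4% in spermatocytes and at 84.3% and 77.6% in round spermatids (limma adjusted p = 8.148e-19). In Rnf17, a germ granule protein of the piRNA pathway, a 164-nt exon was at 97.5% and 97.9% against 73.3% and 71.7% (limma adjusted p = 1.55e-17). Over whole lists, 8 of 20 genes of the synaptonemal complex, axis and cohesin, 4 of 26 of meiotic recombination and 9 of 22 of the piRNA pathway had a call (40.0%, 15.4% and 40.9%, beside 22.1% of all genes). For Piwil1 and Gpat2, piRNA factors, and for Rnps1 and Hnrnpa3 the called difference turned in sign when 1 round spermatid library was left out, and their libraries overlapped.

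Of called cassette exons of sperm tail and surface genes, 31 of 41 for the axoneme and cilium, 13 of 17 for the fibrous sheath list and 17 of 18 for the acrosome list were higher in round spermatids. Over all genes it was 69.2%, so the first 2 counts lie near the background, and all of them share the dependence of exon direction on the round spermatid libraries. In the list of CatSper, the calcium channel of the sperm tail, and other ion channels, 7 of 12 genes (58.3%, beside 22.1% of all genes) had a call, over 245 tested events. In that list 10 of 10 called introns fell and 23 of 24 called cassette exons rose; these come from 7 genes, so many share a gene. Over all genes 449 of 511 called introns fell and 1243 of 1795 called cassette exons rose. The 185-nt intron of Catsperg1 was at 58.0% and 58.9% in spermatocytes and at 22.7% and 20.3% in round spermatids (limma adjusted p = 1.291e-23). A 156-nt exon of Catsper2 went from 36.8% and 21.2% to 81.0% and 78.8% (limma adjusted p = 3.047e-06).

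Izumo4, a relative of the egg-binding protein IZUMO1, retained a 96-nt intron at 26.4% and 23.4% in spermatocytes and at 4.13% and 3.14% in round spermatids (limma adjusted p = 2.093e-25). Meig1, needed to build the manchette, the microtubule skirt of the spermatid, included a 146-nt exon at 42.9% and 53.4% against 11.2% and 7.47% (limma adjusted p = 1.024e-22). Ift20, an intraflagellar transport protein, included a 229-nt exon at 48.2% and 42.2% against 5.90% and 5.10% (limma adjusted p = 8.67e-15). All 3 fell without overlap and were the minor form in round spermatids. The Izumo4 intron and the Ift20 exon were in the minor form in spermatocytes already. Calls were found in 11 of 33 genes of the acrosome and sperm surface, 12 of 34 of the fibrous sheath, outer dense fibre and manchette, and 29 of 83 of the axoneme and cilium (33.3%, 35.3% and 34.9%, beside 22.1% of all genes). In the same order these lists held 396, 239 and 710 tested events. All 7941 genes together held 32485, so genes of each list had more chances of a call. By event, the acrosome list (7.58%) and the axoneme list (7.04%) lay below the 8.56% called over all events. The fibrous sheath list, with 24 of 239 events called, lay above it.

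On the X chromosome, which is transcriptionally silenced in meiosis, 37 of 297 tested events were called, 32 with higher and 5 with lower inclusion in round spermatids. Over all chromosomes 8.56% were called, 1534 higher and 1248 lower. By gene, 31 of 134 X-linked genes tested had a call, near the 22.1% of all genes, and some of the 37 events share a gene. Of the 32, 25 were cassette exons, a type whose calls were higher in 69.2% over all genes. An example chosen after its values were seen is Usp11, a deubiquitinase, whose 71-nt exon was at 4.46% and 10.1% in spermatocytes and at 45.9% and 55.7% in round spermatids (limma adjusted p = 0.01046).

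The second sample group gives the stage difference in libraries that the calls did not use. Of 2774 called events that could also be fitted there, 2466 (88.9%) differed in the same direction, against 51.9% of events not called. Among called events of at least 10 points without overlap it was 1210 of 1266 (95.6%), with a median of 19.4 points in the first group and 14.8 in the second. Of the 449 introns called lower, 442 were also lower in the second group. Ydjc, for example, was at 89.4% and 85.4% in spermatocytes and at 14.0% and 15.96% in round spermatids there. In a limma fit of all 8 libraries the second group had 1901 called stage differences (5.87% of 32390), and 1185 of the 2774 were among them with the same sign. The introns of Odf2l and Sec63 were not called there (limma adjusted p = 0.2859 and 0.735). Sec63 was at 35.0% and 100% in spermatocytes and at 24.6% and 26.4% in round spermatids of the second group.

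Whether the stage difference itself differed between the groups was tested as an interaction in a limma fit of all 8 libraries. It called 0 of 32390 events (0.0%), with 2675 at an unadjusted p under 0.05, and 17 events without count weights. The smallest adjusted p was 0.206. With 2 libraries per group this does not show that the groups act alike. Tfam had a longer form at 15.2% and 22.5% in spermatocytes of the second group against 57.8% and 46.1% in the first, and its interaction had an adjusted p of 0.588.

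**Figure D4:**
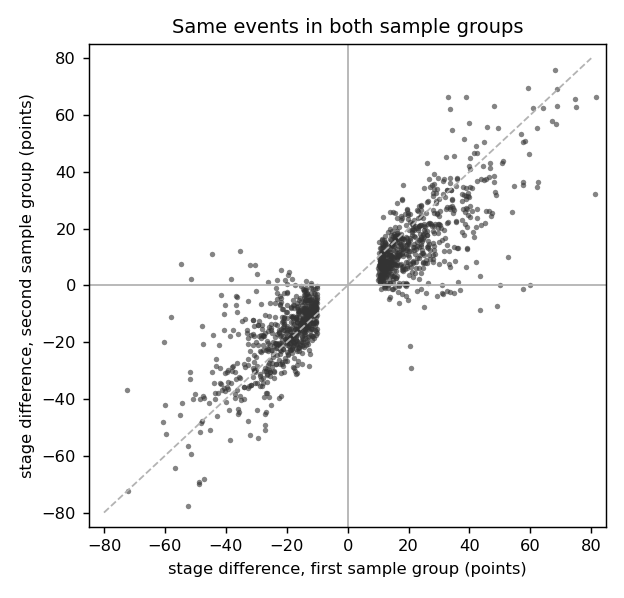
Stage difference in inclusion level (percentage points, round spermatids minus spermatocytes) in the first (x axis) and second sample group (y axis) for called events of at least 10 points without overlap in the first group, with the dashed line of equality. Of 1266 events, 1210 have the same sign in both groups, and no point was called in the test of the difference between groups.

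Transcript abundance was read from the most covered shared event of each gene, as CPM of event reads. Of 8635 genes, 5590 (64.7%) were called, 2015 higher (23.3%) and 3575 lower (41.4%) in round spermatids, with a median log2 difference of -0.46 over all genes. Scaling by the median ratio removed that shift (median -0.01) and gave 2773 higher (32.1%) and 2552 lower (29.6%). In bulk samples, fewer cells of a type and less RNA per cell cannot be told apart. Genes with a called splicing event were called for abundance in 66.0% of cases and the others in 63.1%.

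Stage markers followed their labels. Of 22 round spermatid markers measured, 19 rose and 1 fell, with a median log2 difference of 3.40. Spaca1, an acrosomal membrane protein, went from 42.3 and 26.7 to 381.6 and 356.9 CPM (limma adjusted p = 5.75e-08). Of 27 spermatocyte markers 18 fell and 3 rose (median -2.22), and Sycp3, a synaptonemal complex protein, went from 1228 and 891.7 to 118.4 and 89.2 (limma adjusted p = 4.136e-08).

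Reads of genes listed as markers of other cells were also present. Such reads alone do not show that those cells were in the samples. All 6 elongating spermatid markers measured rose, and Akap4, a fibrous sheath protein, went from 327.4 and 333.3 to 4779 and 5911 CPM (limma adjusted p = 6.954e-09). Spermatogonial markers, 5 measured of 19 listed, summed to 287 and 117 CPM in spermatocytes and to 20.6 and 12.5 in round spermatids. Sertoli cell markers, 4 of 18, summed to 237 and 158 against 79.8 and 108, and Leydig, peritubular and immune markers, 4 of 19, to 32.2 and 22.2 against 27 and 21.6. Only markers with at least 10 reads on average per library were measured, so none of them could be at 0 in all 4 libraries. Listed markers without a shared event were not analysed here. Whether such cells had a part in the splicing differences was not tested.

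Event reads of splicing factor genes were lower in round spermatids. For some genes these reads include an intron that was itself retained less. In Hnrnph1, 11927 of the 12283 event reads of the first spermatocyte library were of the intron form. The part of such reads in the falls was not tested. All 16 SR and SR-like genes measured fell (15 with median-ratio scaling), with a median of -2.16 beside -0.46 for all genes. Of 54 core spliceosome genes 39 fell and 3 rose (29 and 6 with median-ratio scaling), and of 23 hnRNP genes 16 fell and 1 rose (12 and 2). Over all genes 41.4% fell and 23.3% rose (29.6% and 32.1% with median-ratio scaling). Srsf6 went from 235.0 and 176.8 to 31.4 and 27.6 CPM (limma adjusted p = 3.971e-07). Hnrnpl went from 381.2 and 343.4 to 14.2 and 15.2 (limma adjusted p = 2.022e-08). Of the CLK and SRPK kinases, 7 measured, 1 rose and 3 fell, but 2 rose and 1 fell with median-ratio scaling, so their balance depends on the scaling.

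**Figure D5:**
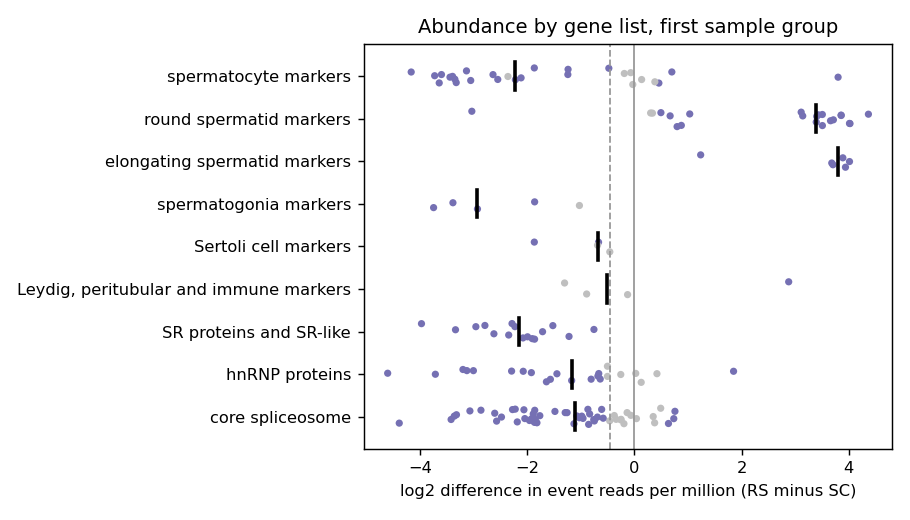
Log2 difference in CPM of event reads, round spermatids (RS) minus spermatocytes (SC), for each gene (points) of the marker and splicing factor lists; coloured points passed the limma test, black bars are list medians, and the dashed line is the median of all genes (-0.46). The SR protein median is -2.16 and the round spermatid marker median 3.40.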

How the data were processed

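The files were 10 deposited tables of splicing events, 1 per stage and event type. STAR is the aligner and mm10 the build that the submitters' processing notes name; no version and no event caller is named in the sources used here. Per the file headers, each cell holds the reads of 2 libraries joined by a comma, with form lengths, so the deposited columns are no plain counts. The authors' own tests were not used.

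Length-normalised log2 odds of inclusion entered limma 3.58.1 (R 4.3.3) with weights of inverse counting variance, with an average of 0.5 reads added to each form and a moderated spread that follows the reads of the rarer form. Benjamini-Hochberg adjustment ran across every event tested, and events below 0.05 were called. The prior degrees of freedom came out infinite, so all events of like depth share 1 spread. In simulated data with changed events this fit made more false calls than the nominal share, fewer among differences of at least 10 points without overlap. Abundance used limma's voom. Drawing used matplotlib 3.10.9 in Python 3.11.15.

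Members and lists were chosen with earlier results of these data known, and so were the rarer-form trend and the scaled addition of reads, which an earlier analysis adopted after seeing how many events were called. Named events were the 3 largest called per type and direction with no overlap and at least 20 reads per library, up to 4 genes per list by adjusted p, and all Larp7 events; 1 event that this rule names is not reported here. For abundance, up to 4 genes per list were named. Other genes are named as chosen after their values were seen. Settings were varied 1 at a time; robust moderation and the 8-library fits with a library left out were added after seeing the data. RefSeq sequences (GRCm38.p6) covered 23 splice sites of the larger called differences, in 19 events, and all 23 carried GT or AG.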

Additional observations from a re-analysis of the deposited data

How the results depend on the processing

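The 2782 called events became 768 without count weights (684 of them shared) and 1580 with the trend on total reads (1448 shared). They became 0 with any 1 of the 4 libraries left out, where 2 libraries of a stage face 1 that is assumed to vary like them, and 955 in the 8-library fit without round spermatid library 2. The 8-library fit called 4040 (2771 shared), a term for the position in the table cell 3691, the quasi-binomial test 2922 (2458 shared), and the other settings that were run with all 4 libraries between 2244 and 2915. Without 1 library, between 2720 and 2744 of the 2782 kept their direction.

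The test of the difference between groups called 17 events without count weights and 0 under its other settings. Averaged over all events of each table, the stage difference was -1.53 points for cassette exons and -1.74 for alternative 3 prime sites, against 0.87 and 0.69 over shared events. For mutually exclusive exons, leaving out each library gave -0.49 to 0.10 points, with 0.08 without spermatocyte library 1 and 0.10 without round spermatid library 2. Log2 odds differences with 1 of the 4 libraries left out ranged from -0.17 to 2.59 for Hnrnpa3, -5.37 to 0.87 for Gpat2, -6.04 to 0.81 for Piwil1 and -5.40 to 3.18 for Rnps1, from -0.91 to 0.59 for the Larp7 exon at 127543032 and from 0.00 to 2.30 for its 5 prime site event. In the 8-library fits without a library, Hnrnpa3 turned to -0.17, Gpat2 to 0.62, Piwil1 to 0.73, Rnps1 to 2.79, the Larp7 exon at 127543032 to 0.67 and that at 127546047 to 0.00. The cause was not tested. Abundance calls ranged from 4574 to 6009.

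No paired analysis was possible because the table columns carry no replicate numbers; the term for the position in the cell (3691 calls) groups libraries by their order only, which no label ties to a replicate. Low reads of the rarer form limit precision: a minimum of 5 such reads left 17765 of the 32485 events.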

Other observations

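Among called events of at least 10 points without overlap in the first sample group, 18 went the other way without overlap in the second group; they were singled out after their values were seen. A 135-nt intron of Adgrl1, an adhesion receptor, was at 21.5% and 34.9% in spermatocytes and 47.6% and 50.3% in round spermatids of the first group, and at 81.3% and 72.4% against 55.9% and 39.9% in the second (interaction, limma adjusted p = 0.3496). The longer 5 prime form of Acot8, a peroxisomal thioesterase, was at 79.6% and 83.3% against 94.86% and 95.04% in the first group and at 97.1% and 96.6% against 93.0% and 91.4% in the second (interaction, limma adjusted p = 0.5879). None of these differences between groups passed the test.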
